A study of Homo sapiens with 82 samples.

Results

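Occupancy of the genome by RNA polymerase II (RNAP2), the enzyme that transcribes protein-coding genes, was compared between HT29 cells treated for 48 h with the LXR agonist GW3965 and cells given the carrier DMSO. HT29 is an established human colorectal adenocarcinoma line. The comparison rests on the 4 RNAP2 peak files of these groups, 2 replicates each, which hold 127376 of the 813345 peaks in the 34 peak files of the series. GW3965 was given at 10 μM. The DMSO libraries of ChIP-seq carry no hour in their labels, and the labels do not say whether replicates came from separate cultures. Peak files of H3K27ac in the same conditions, of LXRB and of a FLAG-tagged LXRA transgene after 2 and 48 h of GW3965, and of JunD in DMSO were laid over the RNAP2 sites. LXRA was profiled in cells that carry the transgene and not through the receptor's own gene product. RNAP2 after 24 h of GW3965 and after 24 or 48 h of 10 μM rosiglitazone, a PPARG agonist, was read as a further comparison. Peak files of PPARG after 2 and 48 h of rosiglitazone were laid over the RNAP2 sites too. RNA-seq of the 48 h groups covered the genes that encode RNAP2 and its regulators. The RNA fit also held the 48 h libraries of rosiglitazone and of 10 μM T0901317, a second LXR agonist.

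RNAP2 is loaded at promoters, often pauses a short way downstream and then travels through the gene body, and it is also found at active enhancers. ChIP-seq peaks of RNAP2 therefore mark starts, transcribed bodies and enhancers alike. LXRA and LXRB are nuclear receptors that switch on cholesterol efflux and fatty acid synthesis when bound by an agonist. H3K27ac is a histone mark of active promoters and enhancers. JunD belongs to AP1, a family of dimeric transcription factors that bind many enhancers and act downstream of growth factor signalling.

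The libraries differed in peak width as well as in treatment. The DMSO replicates held 30638 and 35010 RNAP2 peaks and the GW3965 replicates 32831 and 28897, so peak numbers of the groups overlapped. Median peak width was 1228 and 1046 bp in DMSO and 899 and 969 bp with GW3965, and the peaks covered 48.8 and 48.75 Mb against 40.05 and 36.9 Mb. Both measures were lower in the 2 GW3965 libraries than in either DMSO library, with an exact two-sided permutation p of 0.33, the smallest that 2 against 2 allows. The narrowest peak of a library, a property of its peak calling, was 322 and 250 bp in DMSO and 171 and 196 bp with GW3965. The 2 GW3965 libraries had the smallest such values of all 10 RNAP2 libraries, which ran up to 353 bp. The files also show that both libraries of a group were called against 1 input library, so input and treatment cannot be told apart. Read depth is unknown here, and a peak caller finds more peaks in a deeper library.

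More RNAP2 sites were lost than gained after 48 h of GW3965 when both replicates were used. A site was the merged span of overlapping peaks of both replicates, which gave 26581 sites in DMSO and 24895 with GW3965. Of the DMSO sites, 7786 (29.3%) overlapped no GW3965 site and are called lost. Of the GW3965 sites, 4872 (19.6%) overlapped no DMSO site and are called gained. When neither library of the other group was allowed a peak, 5012 sites were lost and 2149 gained. Both classes were weak sites. The median lost site stood at percentile 23.73 of the peak scores of its libraries and the median gained site at percentile 25.56, against 63.32 and 60.6 for shared sites. The score is minus 10 times the log10 of the p that MACS gave a peak.

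The turnover has to be read against that between replicates. Within a group, 10.01% to 20.83% of the peaks of 1 library were absent from its replicate, and between groups 13.91% to 32.19% were. The loss exceeded replicate turnover in each of the 4 pairings of libraries, with 28.65% to 32.19% of DMSO peaks absent with GW3965. The gain did not, since 13.91% to 28.45% of GW3965 peaks were absent in DMSO. Of the peaks lost in the first pair of replicates, 56.18% were lost in the second pair and 1.296% were gained there. Over all peaks of DMSO replicate 1 these shares were 22.3% and 1.394%. Of the peaks gained in the first pair, 25.11% were gained and 10.81% lost in the second. Over all peaks of GW3965 replicate 1 these shares were 8.404% and 9.607%, so the share lost was near that of any peak. Chosen in the second pair and read in the first, the order turned, with 57.63% of gained peaks gained and 3.558% lost, and 46.67% of lost peaks lost and 8.018% gained. Over all peaks of GW3965 replicate 2, 17.25% were gained and 4.609% lost. Over all peaks of DMSO replicate 2, 18.2% were lost and 10.07% gained. DMSO replicate 2 held a peak at 49.79% of the gained sites, and DMSO replicate 1 at 6.301%. The order of gains and losses rested on single libraries. Without GW3965 replicate 1 there were 6797 gained and 6720 lost sites, and without GW3965 replicate 2 there were 9678 gained and 6079 lost. Without DMSO replicate 1 there were 2523 gained and 12680 lost sites, and without DMSO replicate 2 there were 4650 and 11033. A group of 1 library has more sites than the overlap of 2, by construction.

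The strongest gained sites were tall and broad, and most had no RNAP2 peak in either DMSO library. Positions are hg19, and no gene was assigned to them because no hg19 annotation was used here. The site at chr17:80036587-80052479, 15893 bp wide, scored 3100 in both GW3965 libraries. Scores reached this cap or passed it at 670 of 32831 and 390 of 28897 peaks of these libraries. The site had no peak in DMSO and scored 3100 in both libraries of 24 h of GW3965. In replicate 1 of rosiglitazone it scored 159.7 at 24 h and 418.8 at 48 h. Next to each other on chromosome 10 lay chr10:102113267-102118192 and chr10:102118289-102120699, both at 3100 in the 2 GW3965 libraries and without a DMSO peak. The first of them scored 2846 and 3100 after 24 h of GW3965, and the second 1440 and 2775. A site at chr21:43718249-43726453 scored 3100 and 3100 after 48 h and 1619 and 3100 after 24 h.

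On chromosome 9, 3 of the 10 strongest gained sites fell into 1 stretch. They were chr9:107537086-107542023 (scores 3100 and 3220), chr9:107584201-107592473 (3100 and 1741) and chr9:107688316-107690746 (3157 and 2581). None of these had a DMSO peak. The last also lay at LXRB sites of 2 and 48 h, LXRA-FLAG sites of both times and an H3K27ac site seen after 24 and 48 h of GW3965 but not in DMSO. Of the 10 strongest gained sites, 3 lay at an LXRB site of 48 h, 2 at an H3K27ac site of 48 h, 0 at an H3K27ac site of DMSO and 0 at a JunD site. All 10 had a peak in replicate 2 and 9 in replicate 1 of 24 h of GW3965, against 2 to 7 in the rosiglitazone libraries. Sites at chr17:73750059-73755323, chr1:55310843-55314480 and chr9:136333763-136336444 were weaker cases, with scores of 625.3, 149.7 and 349 in DMSO replicate 2.

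Gained sites were bunched along the genome more than lost ones. Within 10 kb of a gained site lay another gained site in 32.04% of cases, against 17.96% for lost sites. Runs of sites of 1 class no more than 10 kb apart were collected, a measure added after the data had been seen. Runs of 5 or more sites numbered 30 for gained and 10 for lost sites and held 282 and 72 sites. The longest ran over 153.7 kb, chr9:107537086-107690746, and held 55 gained sites. RNAP2 peaks covered 2.027 and 3.106 kb of it in DMSO and 118 and 92.89 kb after 48 h of GW3965. After 24 h of GW3965 they covered 10.78 and 76.05 kb, and in the 4 rosiglitazone libraries between 0 and 2.923 kb. It held 2 LXRB sites at 48 h and 3 H3K27ac sites at 48 h, against 0 in DMSO, and 0 JunD sites.

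**Figure D1:**
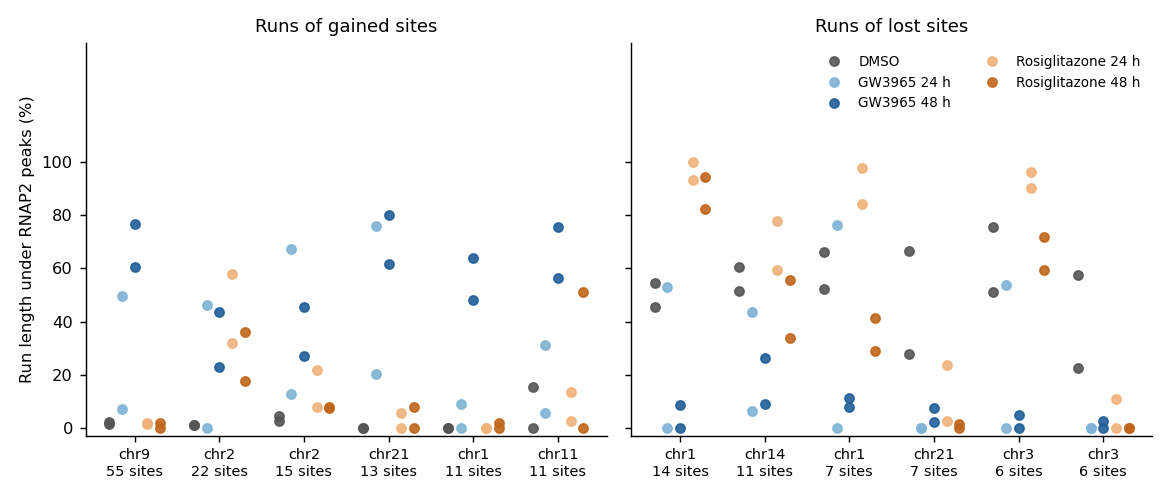
Share of each run's length under RNAP2 peaks (y axis, percent) for the 6 runs with most gained sites (left) and most lost sites (right), named by chromosome and number of sites. Each point is 1 library, coloured by treatment. The 48 h GW3965 libraries stand apart from DMSO in each by the choice of sites, while the 24 h and rosiglitazone libraries differ from run to run.

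Other runs of gained sites behaved in different ways in the libraries that did not choose them. At chr21:43692270-43727745, 13 gained sites were covered over 28.45 and 21.88 kb at 48 h and over 0 kb in both DMSO libraries. Coverage there was 7.227 and 26.95 kb at 24 h of GW3965 and at most 2.783 kb with rosiglitazone. At chr1:53745492-53789234, 11 sites covered 28 and 20.99 kb at 48 h, 0 kb in DMSO, and 0 and 3.867 kb at 24 h. At chr2:168861973-168959123, by contrast, 22 gained sites covered 42.35 and 22.23 kb at 48 h and about 1 kb in each DMSO library, but rosiglitazone libraries covered 17.02 to 56.27 kb. That stretch was thus covered with either drug.

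Lost sites had no counterpart of that height. The 10 strongest ranked from percentile 81.72 to 85.62, and 0 lost sites reached percentile 90, against 11 gained sites. At chr14:53166984-53168415, which carried LXRB, LXRA-FLAG, JunD and H3K27ac sites, the DMSO scores were 805 and 785.9, GW3965 replicate 1 scored 144.8 and replicate 2 had no peak. At chr13:106796196-106797373, with the same 4 partners, DMSO scored 679.9 and 761 and GW3965 replicate 1 scored 121.2, again with no peak in replicate 2. At chr4:89363517-89367589 DMSO scored 1033 and 760.2, and neither library of 48 h nor of 24 h of GW3965 had a peak. Rosiglitazone had a peak there in 1 of 4 libraries, at 425.2. Of the 10 strongest lost sites, 8 still had a weak peak in GW3965 replicate 1 and 0 in replicate 2, 4 lay at a JunD site and 4 at an LXRB site of 48 h.

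Of the 6 runs with most lost sites, 3 held 4 or more JunD sites, 1 held 1 and 2 held 0. At chr1:94655357-94698414, 14 lost sites with 9 JunD sites were covered over 19.56 and 23.41 kb in DMSO and over 3.646 and 0 kb at 48 h of GW3965. Rosiglitazone libraries covered 35.49 to 43.05 kb there, and those of 24 h of GW3965 covered 0 and 22.83 kb. At chr1:207512729-207532452, with 7 JunD sites, coverage was 13.05 and 10.33 kb in DMSO and 2.218 and 1.568 kb at 48 h. At chr14:100802920-100844595, with 11 lost sites and 1 JunD site, it was 25.27 and 21.41 kb in DMSO and 11 and 3.754 kb at 48 h. At chr21:42746137-42775731, which held 0 JunD sites, it was 19.67 and 8.253 kb in DMSO and 2.206 and 0.654 kb at 48 h, and rosiglitazone covered 0 to 7.046 kb. Coverage there was below both DMSO libraries with either drug.

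Gained sites held JunD, LXR and PPARG sites less often than lost or shared sites did. The rule sets this in part, since a gained site overlaps no DMSO RNAP2 site and 84.88% of JunD sites overlapped one. JunD sites of DMSO cells overlapped 24.76% of lost sites (Wilson 95% interval 23.82 to 25.73), 1.95% of gained sites (1.598 to 2.378) and 29.57% of shared sites. LXRB sites of 48 h overlapped 15.62% of lost, 3.879% of gained and 36.14% of shared sites. LXRA-FLAG sites of 48 h overlapped 40.32%, 8.867% and 48.31%. PPARG sites, profiled after 2 h of rosiglitazone, overlapped 31.21%, 5.932% and 32.94%, and those of 48 h 16.09%, 3.51% and 21.27%. H3K27ac sites of 48 h overlapped 33.23% of lost and 37.99% of gained sites, both far under the 73.83% of shared sites. Shared sites were wider, with a median of 1609 bp against 987 bp for lost and 940 bp for gained sites. A wider site meets a partner more easily, and the part of width in these shares was not tested. The shares depended on which peaks were used. Lost sites at JunD were 15.4% and at LXRB 7.59% with peaks of either replicate, and 44.8% and 39.4% at a score of at least 200. Gained sites at JunD were 1.33% and 3.39% under these settings, and at LXRB 1.91% and 6.96%. Gained sites at H3K27ac sites were 21.5% and 57.8%, and lost ones 23.7% and 50.1%. These intervals cover counting error only. LXR binding was profiled with the agonist present and JunD without it.

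**Figure D2:**
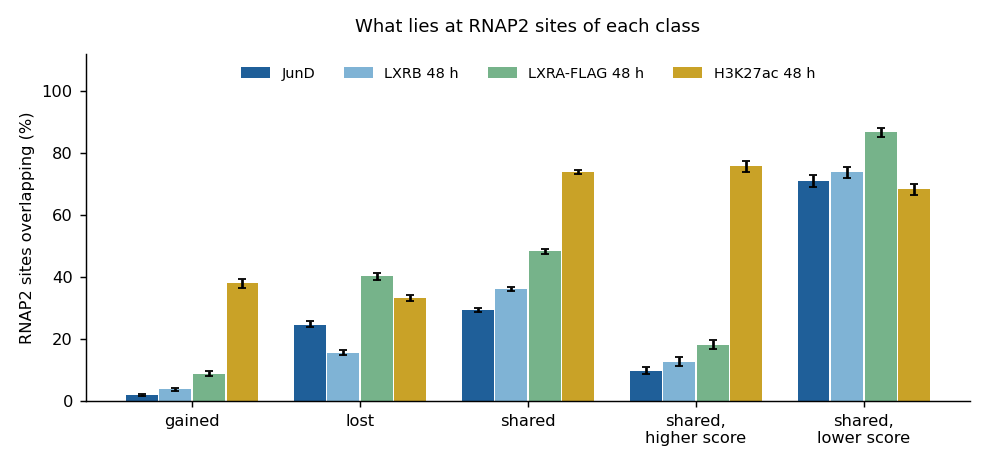
Share of RNAP2 sites that overlap JunD sites (DMSO), LXRB, LXRA-FLAG and H3K27ac sites (48 h of GW3965), for gained, lost and shared sites and for shared sites with a higher or lower score with GW3965 (y axis, percent, bars from 0, error bars Wilson 95% intervals). JunD and both LXRs are lowest at gained and higher-score sites and highest at lower-score sites.

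Because weak sites are lost most often, the share lost was compared within quartile groups of the sites by DMSO score, taking the lower percentile of the 2 libraries. In the weakest quartile group, 82.18% of RNAP2 sites at JunD sites were lost and 60.41% of those elsewhere. In the second quartile group the shares were 57.44% and 35.12%, in the third 23.32% and 9.384%, and in the strongest 1.429% and 0.5784%. RNAP2 sites at JunD were thus lost more often in every quartile group, although over all sites the order was the other way, 25.76% against 30.68%. Of the 7485 RNAP2 sites at JunD sites, 3360 were in the strongest quartile group and 808 in the weakest. The Wilson intervals did not overlap in any of the 4 quartile groups. Sites of 1 library pair are not replicates of the treatment, and these shares carry no test.

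LXRB sites showed no such order. Over all sites, 15.18% of RNAP2 sites at LXRB sites of 48 h were lost and 35.37% of the others. Within quartile groups the shares were 64.54% and 62.92%, 38.89% and 39.61%, 14.28% and 13.25%, and 0.7837% and 1.313%, with no steady order. RNAP2 sites with H3K27ac were lost less often in each quartile group, with 48.81% lost at H3K27ac sites of either condition and 76.62% elsewhere in the weakest quartile group, and 8.721% and 29.36% in the third. LXRA-FLAG lay between, with 68.74% and 60.95% in the weakest quartile group and 17.36% and 9.349% in the third.

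**Figure D3:**
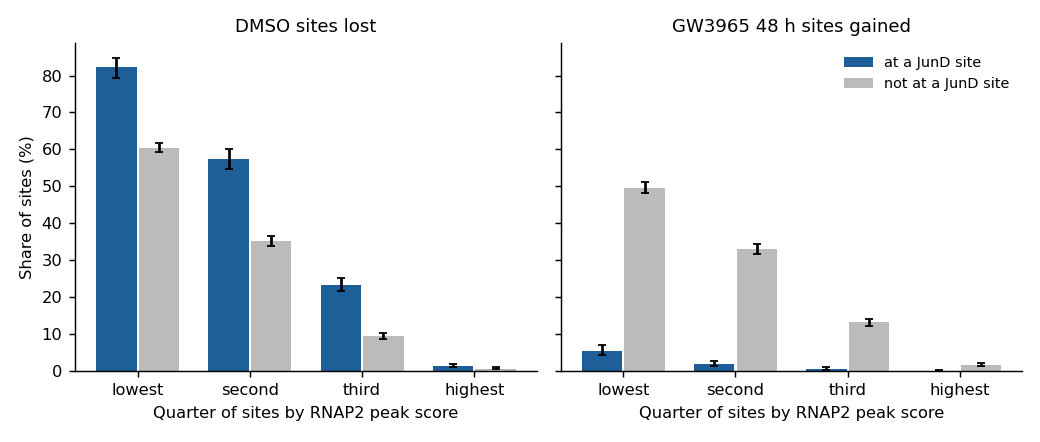
Share of DMSO sites lost (left) and of 48 h GW3965 sites gained (right) within quartile groups of the sites by RNAP2 peak score, at JunD sites and elsewhere (y axis, percent, bars from 0, error bars Wilson 95% intervals). JunD sites are lost more often and gained less often than other sites of like score, the latter in part by the rule for gained sites.

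Gained sites were rare at JunD sites at every strength, which the rule itself sets in part. A gained site overlaps no DMSO RNAP2 site, and 84.88% of JunD sites and 90.79% of 48 h LXRB sites overlapped one. RNAP2 sites there could thus seldom be called gained. Among GW3965 sites of the weakest quartile group, 5.455% of those at JunD sites were gained and 49.65% of those elsewhere. In the strongest quartile group it was 0 of 2097 sites, which allows a share of up to 0.143%, against 1.672% elsewhere. LXRB sites of 48 h showed the same order, with 8.349% and 48.48% in the weakest quartile group, as did LXRA-FLAG sites with 12.08% and 56.61%. Sites with none of H3K27ac, JunD and LXRB were gained in 54.29% of cases, those with H3K27ac alone in 18.32%, and those with all 3 in 0.1579%. Absent peaks in single pairs of libraries gave the same picture. JunD sites lay at 17.57% to 20.34% of DMSO peaks absent with GW3965, at 2.214% to 2.561% of GW3965 peaks absent in DMSO, and at 4.385% to 12.23% of peaks absent from the replicate.

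Read from the partner's side, fewer JunD sites carried RNAP2 after GW3965. Of the 8960 JunD sites, 88.68% and 87.71% had an RNAP2 peak in the DMSO libraries and 70.01% and 67.46% at 48 h of GW3965. The 24 h GW3965 libraries stood at 73.14% and 77.69%. Rosiglitazone libraries stood at 92.21% and 92.25% after 24 h and 79.2% and 88.82% after 48 h. All 4 GW3965 libraries were thus below the other 6. Of the 9218 LXRB sites of 48 h, 92.88% and 92.73% had an RNAP2 peak in DMSO, 84.23% and 82% at 48 h and 83.54% and 84.07% at 24 h of GW3965, and 87.71% to 93.24% with rosiglitazone. Over all 26581 RNAP2 sites of DMSO the GW3965 libraries were lowest too, at 74.72% to 77.13%, against 78.64% to 86.33% with rosiglitazone. The 24 h GW3965 libraries held the fewest RNAP2 peaks of any library, 27260 and 27249. How far the shares at JunD and LXRB sites follow from this was not tested. With 2 libraries against 2, an exact permutation test cannot go below 0.33 for either set.

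**Figure D4:**
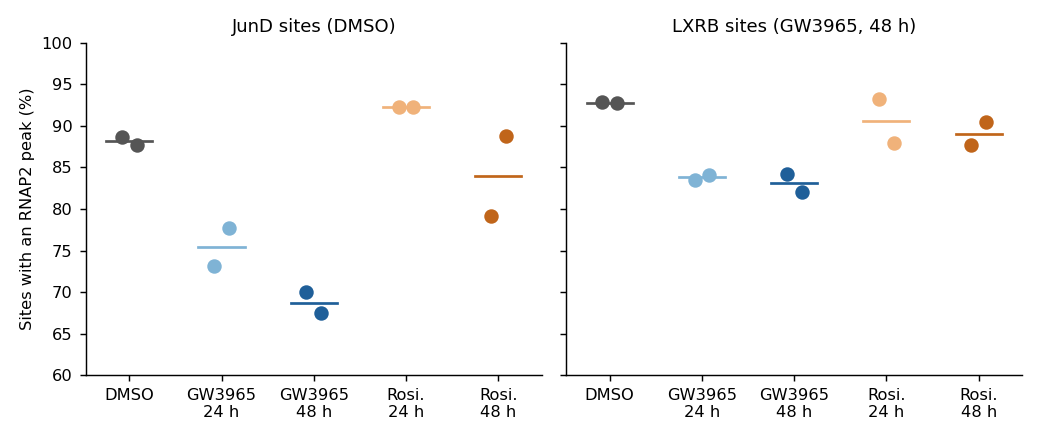
Share of JunD sites (left) and of 48 h LXRB sites (right) with an RNAP2 peak (y axis, percent, from 60) in each of the 10 RNAP2 libraries. Points are libraries and lines group means. The 4 GW3965 libraries lie between 67.46% and 77.69% at JunD sites and between 82% and 84.23% at LXRB sites, below the 6 other libraries in both panels.

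Loss of RNAP2 at LXRB sites was larger at those seen late. At the 5827 LXRB sites seen at 48 h but not at 2 h, RNAP2 peaks were present at 91.63% and 91.02% in DMSO, 77.79% and 79.2% at 24 h and 79.1% and 75.85% at 48 h of GW3965. At the 3391 sites bound at both times they were present at 95.05% and 95.66% in DMSO and 93.04% and 92.57% at 48 h. The drop in the mean share was larger at the late sites in each pairing of libraries, but late sites are narrower, with a median of 952 against 1146 bp, and the part of site strength was not tested.

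RNAP2 was not more frequent at the places where H3K27ac was gained. At the 5887 H3K27ac sites gained at 48 h of GW3965, 40.68% and 42.79% had an RNAP2 peak in DMSO and 34.43% and 36.25% at 48 h. At the 3055 H3K27ac sites lost, the shares were 55.38% and 65.2% against 51.39% and 43.93%. Both sets had fewer RNAP2 peaks in the 2 GW3965 libraries. Among gained RNAP2 sites, 8.005% lay at a gained H3K27ac site, against 7.054% of all GW3965 sites. Among lost RNAP2 sites 9.453% did, against 7.9% of all DMSO sites. For lost H3K27ac sites the shares were 4.618% and 6.948%, against 5.286% and 6.102%. All of these shares lay near those over all sites.

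Where RNAP2 was present in all 4 libraries, its peak score moved in both directions. Of 18590 such sites, 17911 were below the cap of 3100 in every library and were tested with limma on quantile-normalised log2 scores. At an adjusted p under 0.05, 2260 sites (12.6%) had a higher and 2426 (13.5%) a lower score with GW3965. Leaving out 1 library changed some of these counts by over 1.5 times, though neither count without DMSO replicate 1. They were 458 and 833 without GW3965 replicate 1, 599 and 1119 without GW3965 replicate 2, and 3894 and 3558 without DMSO replicate 2. A fit over all 10 RNAP2 libraries called 0 sites in either direction among 11322.

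Sites with a lower score were mostly bound by JunD and the LXRs. JunD lay at 70.98% of them (Wilson 69.14 to 72.75), LXRB of 48 h at 73.78% and LXRA-FLAG of 48 h at 86.6%, against 27.7%, 34.93% and 48.11% of all sites tested. Of sites with a higher score, 9.867% lay at JunD, 12.79% at LXRB and 18.27% at LXRA-FLAG sites. H3K27ac of 48 h differed little, at 68.26% of lower and 75.66% of higher sites. Counted the other way, 42.78% of the 3352 sites with both JunD and LXRB fell in score and 2.058% rose. Of the 10046 sites with neither, 3.464% fell and 18.09% rose. JunD alone (17.9% lower) and LXRB alone (12.26% lower) lay between them. The median difference of log2 score, GW3965 minus DMSO, was -0.81 with both and 0.36 with neither.

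The 8 largest falls in score, all at JunD sites, ranged from -2.67 to -3.04 on the log2 scale. At chr6:150738795-150740888, which held LXRB, LXRA-FLAG and H3K27ac sites too, the scores were 1155 and 1179 in DMSO and 164.1 and 143.6 with GW3965 (log2 difference -3.04, SE 0.33, limma adjusted p = 0.0011). At chr12:12550704-12551943 they were 1133 and 1104 against 178 and 141.8 (-2.93, SE 0.34). At chr14:101910167-101910920 they were 883.4 and 757.6 against 132.2 and 100.4 (-2.99, SE 0.39). Sites were named only where both GW3965 libraries lay on the same side of both DMSO libraries, so this separation came by choice. The largest rises were at chr17:46025772-46028283, with 126 and 150.4 against 1194 and 1351 (3.08, SE 0.36, adjusted p = 0.0011), and at chr5:176855959-176864011, with 107.6 and 189.3 against 1243 and 1044 (2.94, SE 0.36). Neither held a JunD or a 48 h LXRB site.

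This contrast in score moved with the peak width of the library. Over the 12265 sites with a peak in all 10 RNAP2 libraries, the median score percentile at sites with JunD and LXRB was compared with that at sites with neither. The difference was 41.92 and 22.53 points in DMSO and -18.08 and -10.38 points at 48 h of GW3965. It was 30.41 and 11.24 at 24 h of GW3965, 26.99 and 42.06 at 24 h and -5.63 and 43.05 at 48 h of rosiglitazone. The order followed the narrowest peak of each library, with Pearson's r = 0.917 and Spearman's rho = 0.952 over the 10 libraries (two-sided permutation p = 0.00029 and 9e-05). Over the 6 libraries outside the comparison r was 0.863 and rho 0.943 (exact permutation p = 0.025 and 0.0167). Adjusted over the 8 relations computed, these p were 0.00232 and 0.00072, and 0.1 and 0.0469. Without the 2 libraries farthest from the median width r was 0.916 and 0.816. Since the 2 GW3965 libraries of 48 h have the narrowest peaks of all, library width and treatment cannot be told apart for the score.

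**Figure D5:**
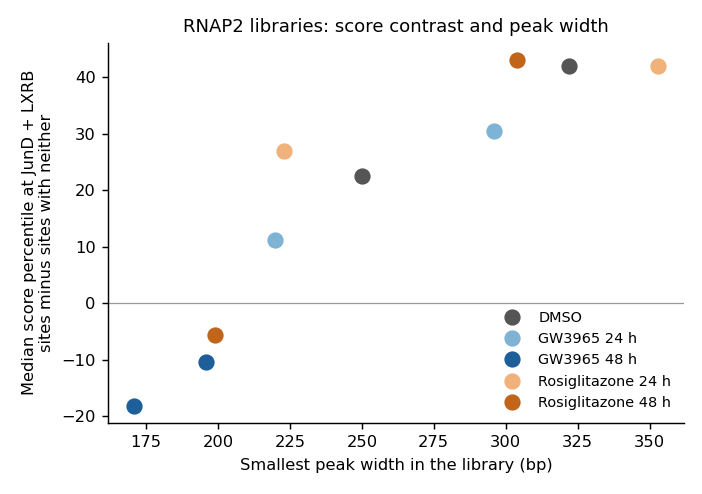
Difference in median score percentile between RNAP2 sites with JunD and LXRB and sites with neither (y axis, percentile points) against the narrowest peak of the library (x axis, bp), 1 point per RNAP2 library, coloured by treatment. The 2 libraries of 48 h of GW3965 and replicate 1 of 48 h of rosiglitazone lie together at the lower left, at -18.08, -10.38 and -5.63 points.

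The share of JunD sites with an RNAP2 peak was set against the narrowest peak in the same way. Over the 10 libraries r was 0.623 (permutation p = 0.0586, adjusted 0.133) and rho 0.745 (p = 0.0176, adjusted 0.0469), and r was 0.436 without the 2 libraries farthest from the median width. Over the 6 libraries outside the comparison r was 0.334 (exact permutation p = 0.521, adjusted 0.595) and rho 0.486 (p = 0.356, adjusted 0.406). For this share too, library width and treatment cannot be told apart within the 4 libraries of the comparison. Outside it, 24 h GW3965 libraries with a narrowest peak of 220 and 296 bp stood at 77.69% and 73.14%. Rosiglitazone libraries with 223 bp (24 h) and 304 bp (48 h) stood at 92.21% and 88.82%. The difference at like width was not tested. For presence at gained sites r over the 6 libraries was -0.799 (exact permutation p = 0.0667, adjusted 0.133), and presence there was 33.68% and 50% at 24 h of GW3965, 53.33% and 41.93% at 24 h and 64.37% and 33.68% at 48 h of rosiglitazone. The shares with rosiglitazone and with 24 h of GW3965 overlapped. Lost sites were occupied at 48.66% and 39.96% after 24 h of GW3965, at 68.03% and 71.67% after 24 h and at 47.37% and 65.45% after 48 h of rosiglitazone.

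The site classes can be narrowed with those 6 libraries, which took no part in the calls. Among gained sites, 95 (1.95%) had a peak in both 24 h GW3965 libraries and in no rosiglitazone library. Of these, 0 lay at JunD and 10 (10.53%) at 48 h LXRB sites, against 1.95% and 3.879% of all gained sites. The opposite pattern was no peak at 24 h of GW3965 and one in all 4 rosiglitazone libraries. It was found at 121 gained sites (2.484%), of which 9 (7.438%) lay at JunD sites. Among lost sites, 581 (7.462%) had no peak in either 24 h GW3965 library and one in all 4 rosiglitazone libraries. Of these, 34.42% lay at JunD and 23.06% at LXRB sites, against 24.76% and 15.62% of all lost sites. The opposite pattern was found at 50 lost sites (0.6422%). Of the lost sites, 906 (11.64%) had a peak in all 6 of these libraries, and 54.86% of them lay at JunD sites. All these treatments share the DMSO libraries as their control, so that the DMSO peaks that define loss are common to them.

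Few sites were called changed in width once the libraries were set to the same median. The test had limited power, recovering 31 of 100 sites changed by log2 1 on simulated data. Power is lower still with a library left out or a block added, so sites not called may still have changed. Of 18590 sites with a peak in all 4 libraries, limma called 45 widened (0.242%) and 120 narrowed (0.646%) at an adjusted p under 0.05, and at an unadjusted p under 0.05 there were 1996 and 2539. The calls lay close to the threshold, with adjusted p from 0.0486 to 0.0492 among the 16 sites named by rule. Leaving out any 1 library, a replicate block, quantile normalisation and taking off the narrowest peak width of each library each left 0 calls in both directions. JunD lay at 50% of narrowed sites (Wilson 41.19 to 58.81) and 8.889% of widened sites (3.511 to 20.73), against 29.76% of sites tested.

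The sites named for width had the largest changes, with both GW3965 libraries on the same side of both DMSO libraries by rule. Their separation thus came by choice. At chr10:102121183-102126355, which lies just past the 2 strong gained sites of that chromosome and holds LXRB, LXRA-FLAG and JunD sites, RNAP2 peaks spanned 1181 and 1017 bp in DMSO and 5131 and 5130 bp with GW3965 (log2 2.56, SE 0.099, adjusted p = 0.0486). At chr17:63549991-63558552 they spanned 1778 and 1645 against 8487 and 5747 bp, and at chr13:111169431-111173862 1341 and 1046 against 4240 and 4093 bp. Narrowing was strongest at chr9:21563662-21569530, from 4933 and 5787 to 447 and 465 bp (log2 -3.22, SE 0.15, adjusted p = 0.0486), a site with H3K27ac and neither JunD nor LXRB. At chr3:98535504-98544427, a JunD site, the span went from 8396 and 8313 to 2051 and 1840 bp.

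RNA of the RNAP2 subunits and of most pausing and elongation factors changed by less than 2-fold. RNA-seq counts of the 48 h groups (4 libraries each, 32312041 to 50938082 counts) were tested with edgeR, where a gene was called at 2-fold or more with adjusted p below 0.01. Over all 22470 genes, 727 (3.24%) were higher and 570 (2.54%) lower. By adjusted p alone, 3621 genes (16.1%) were higher and 3939 (17.5%) lower. Of 12 RNAP2 subunits, 11 were matched and tested, with the largest subunit, POLR2A, unmatched. None of the 11 was called, 2 passed the adjusted p alone, and the median log2 change was -0.01. POLR2B, the second largest subunit, had 115 ± 7.01 CPM in DMSO and 114 ± 8.48 CPM with GW3965 (SD, n = 4).

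Of 25 tested factors for pausing and elongation, 1 was called lower and 0 higher, while 15 passed the adjusted p downwards and 1 upwards. The median log2 change was -0.36, against 0 over all genes. ELL2, an elongation factor, fell from 30.4 ± 1.21 to 14.1 ± 0.916 CPM (log2 -1.11, SE 0.18, edgeR adjusted p = 4.37e-05). CDC73 of the PAF1 complex (log2 -0.86) and CCNT1 (-0.85), the cyclin of the pause release kinase P-TEFb, passed the adjusted p but not the fold limit. CDK9, the kinase of P-TEFb, was at 42.1 ± 0.806 and 40.8 ± 3.21 CPM. COBRA1, a subunit of the pausing complex NELF, went the other way (log2 0.37, adjusted p = 5.01e-05). RDBP, also of NELF, passed downwards (log2 -0.31, edgeR adjusted p = 0.00153), and the NELF genes WHSC2 and TH1L did not pass. Among 11 kinases and phosphatases of the RNAP2 tail, 0 were called and 5 passed the adjusted p downwards, CCNH (-0.65) and MNAT1 (-0.64) of the CDK7 complex with the largest changes.

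RNA of AP1 members fell while RNA of LXR targets rose. All 8 AP1 genes passed the adjusted p downwards and 5 of them were called lower, with a median log2 change of -1.40. ATF3 fell from 139 ± 5.82 to 15.8 ± 2.21 CPM (log2 -3.14, SE 0.13, edgeR adjusted p = 4.66e-13), FOSL1 from 71.6 ± 5.37 to 13.6 ± 0.683 CPM, FOS from 114 ± 2.9 to 42.4 ± 4.5 CPM and FOSB from 12.9 ± 0.647 to 4.83 ± 0.848 CPM. JUND, whose protein was profiled, went from 263 ± 17.9 to 162 ± 9.26 CPM (log2 -0.70, SE 0.1, adjusted p = 1.23e-05), under the fold limit. JunD binding after GW3965 was not analysed here. Of 16 EGFR ligands and MAPK feedback genes, 10 were called lower and 0 higher, led by the ligands AREG (log2 -3.92) and EREG (-3.38), the immediate early factor EGR1 (-2.90) and the ligand HBEGF (-2.88).

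Of 24 LXR target genes, 20 were tested, 11 were called higher and 1 lower, with a median log2 change of 1.39. ABCA1, a cholesterol efflux transporter, rose from 2.41 ± 0.584 to 131 ± 9.78 CPM (log2 5.77, SE 0.13, adjusted p = 7.98e-17). ABCG1, which also exports cholesterol, rose from 23.3 ± 1.35 to 244 ± 16.9 CPM, fatty acid synthase FASN from 942 ± 95.1 to 8460 ± 755 CPM and the desaturase SCD from 917 ± 51.9 to 5440 ± 206 CPM. APOC1, an apolipoprotein of low level here, was called lower (log2 -1.34, adjusted p = 0.00973), and lost that call under 7 of the alternatives tried. All 10 colon epithelial markers passed the low-count filter, from CDX1 at 1.68 ± 0.162 to KRT8 at 8860 ± 190 CPM in DMSO. Passing that filter does not by itself show that the cells match their label. Of 12 fibroblast, leukocyte and liver markers, 8 were too low to be tested. Highest of those tested was the fibroblast marker COL1A1, at 5.62 ± 0.756 CPM in DMSO and 8.13 ± 0.389 CPM with GW3965. The leukocyte marker CD14, called higher, was at 2.34 ± 0.109 CPM with GW3965. RNA was not tied to single RNAP2 sites here.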

How the data were processed

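RNAP2, H3K27ac, LXRB, LXRA-FLAG, JunD and PPARG peaks were those the authors deposited. They were called per library against an input library with MACS on Bowtie alignments to hg19, without pooling replicates. The deposited peak score is minus 10 times log10 of the MACS p, from 100 up, with a cap at 3100 that some peaks exceeded. RNA was deposited by the authors as counts per Ensembl gene, with TopHat and Cufflinks in the submitters' processing notes; the counting program is not given in the sources used here. No RNA counts were without a gene.

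Peaks of a group's replicates that overlapped by at least 1 bp were merged into sites. A site was gained or lost when it overlapped no site of the other group by 1 bp. Log2 widths centred on the library median and quantile-normalised log2 scores at sites with a peak in all 4 libraries were tested with limma 3.58.1, with Benjamini-Hochberg adjusted p under 0.05. RNA was tested with edgeR 4.0.16 (quasi-likelihood, TMM, 16 libraries of 48 h), calling genes at 2-fold or more with adjusted p below 0.01. Totals of 32312041 to 50938082 counts lay behind the RNA values. Shares have Wilson 95% intervals, which cover counting error only. R 4.3.3, Python 3.11.15 and scipy 1.17.1 were used.

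On simulated data the width test recovered 31 of 100 sites changed by log2 1 and 64 of 100 changed by log2 2, with 4 false calls over 18590 sites. The edgeR test recovered 183 of 200 genes changed 4-fold among 21831, with 0 false calls. Named sites were the 10 gained and 10 lost sites with the highest score percentile in their weaker library, and the 8 largest changes per direction in width and score whose groups did not overlap. Sites on chromosome 8 were not named. Runs of sites, the crossed replicate block and the widths less the narrowest peak were chosen after seeing the data. Members, gene lists and tests were chosen with earlier results of these data known. Replicates are not stated to be separate cultures, so p-values measure the spread between these libraries, which may be technical.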

Additional observations from a re-analysis of the deposited data

Results flagged for a closer look

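The share of JunD sites with an RNAP2 peak moved to opposite sides of DMSO with 48 h of GW3965 and 24 h of rosiglitazone, in both libraries of each, and the means differed by -23.5 percentage points (GW3965 minus rosiglitazone). The difference was not tested, and both comparisons share the DMSO libraries. ELL2 RNA in DMSO had 1 library, at 28.6 CPM, far from the other 3. FOSB RNA in DMSO had 1 library, at 13.9 CPM, far from the other 3. These were 2 of 56 groups of 4 libraries examined with Dixon's test, and chance gives about 1 in 20.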

How the results depend on the processing

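Of 454 values under an alternative, each judged by itself, 356 stayed within the limits set for them and 98 moved. Gene list counts made up 280 of these values, and 271 of them stayed. Of the 174 values that answer a comparison, 85 stayed and 89 moved. The order between gained and lost sites did turn. Without GW3965 replicate 2 there were 9678 gained and 6079 lost sites, against 4872 and 7786 in the main setting. With no peak allowed in either library of the other group, 2149 sites were gained and 5012 lost, and at a score of at least 200, 4430 were lost. Leaving out 1 library gave 2523 to 9678 gained and 6079 to 12680 lost sites. Gained sites at JunD were 1.33% with peaks of either replicate, 1.21% under the strict rule, 3.39% at a score of at least 200, 2.54% with equal numbers of top peaks and 2 to 2.35% leaving out 1 library. In the same order, without the cases that did not move, gained sites at LXRB were 1.91%, 3.35%, 6.96% and 2.86 to 3.92%, and those at H3K27ac 21.5%, 28.1%, 57.8%, 40.3% and 28 to 36.9%. Lost sites at JunD were 15.4% with either replicate, 44.8% at a score of at least 200, 29.4% with top peaks and 18 to 24.7% leaving out 1 library. Lost sites at LXRB were 7.59%, 12.5%, 39.4%, 19.4% and 10.6 to 14.8%, and those at H3K27ac 23.7%, 28.3%, 50.1%, 36.4% and 29.9 to 32.2%. The cause was not tested.

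Width calls, 45 widened and 120 narrowed, were 12 and 54 with all 10 libraries, 96 and 1370 without centring, and 0 and 0 with quantile normalisation, with the narrowest peak taken off (chosen after seeing the data) and leaving out any 1 library (0 to 0). Score calls were 0 and 0 with all 10 libraries and 458 to 3894 higher and 833 to 3558 lower leaving out 1 library. With median-centred scores, 12.7% of higher and 65.6% of lower sites lay at JunD and 16.2% and 67.7% at LXRB. With capped sites kept, 12.4% and 14.5% of higher sites lay at JunD and LXRB. Leaving out 1 library gave 9.01 to 14.7% of higher and 67.1 to 78.8% of lower sites at JunD and 11.1 to 15.1% and 71.5 to 80.6% at LXRB. RNA counts over all genes stayed within 1.5 times under each alternative, at 650 to 805 higher and 532 to 641 lower.

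The replicate numbers did not pair the samples. Deviations of same-numbered RNAP2 libraries had r = -0.1075 for width and -0.1012 for score over sites, and those of RNA libraries r from -0.0317 to 0.0274 over genes, with 1 of 4 numbers best matched by itself. With a replicate block, 0 sites were widened and 0 narrowed, 2214 were higher and 2411 lower in score, and 720 genes were higher and 567 lower. With the block crossed, chosen after seeing the data, 0 were widened, 0 narrowed, 3125 higher and 3161 lower, and 67.7% and 70.4% of lower sites lay at JunD and LXRB. RNA at genes with RNAP2 sites at their promoters was not run, since no hg19 annotation was used here.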
